A study of Mus musculus with 7 samples.

Results

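Interferon-stimulated genes are the genes that cells switch on when they sense interferon, and 36 of them, out of 27998 genes counted, were followed through mouse muscle stem cells and through the cell types of whole muscle. They were taken by symbol from a fixed list, and each symbol matched 1 row of the count tables. By role they were 18 type I effectors such as Isg15 and Ifit1, 2 cytoplasmic RNA sensors (Ifih1 and Ddx58), 3 Ifitm membrane proteins, 5 transcription factors (Irf1, Irf7, Irf8, Irf9 and Stat2) and 8 interferon-inducible GTPases (Gbp2, Gbp3, Gbp4, Gbp5, Gbp7, Igtp, Irgm1 and Iigp1).

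Interferons are secreted proteins that bind cell surface receptors and act through JAK kinases and STAT transcription factors. Type I interferons drive a complex that includes Stat2 and Irf9 to a DNA element called the interferon-stimulated response element. The induced proteins block viral entry, degrade or sequester foreign RNA, attack the compartments of intracellular microbes and feed back on the pathway itself. Muscle stem cells (MuSCs, or satellite cells) rest beneath the sheath of the muscle fibre, enter division after injury and can be grown in culture as primary myoblasts.

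RNA of single cells was counted with a droplet 3′ assay (10x Genomics), in which unique molecular identifiers (UMIs) count captured molecules. The mice were labelled as strain C56BL/6J. Primary myoblasts (1 library) came from hindlimbs of 3-month-old wild-type mice and had been grown for 4 to 5 passages on collagen in HAM's F10 with 2.5 ng/µl bFGF and 10% horse serum. Injured MuSCs (2 libraries) were sorted by flow cytometry from muscles labelled TE-EDL, 60 h after they were injured; the agent was notexin at 2 µM, a toxin of snake venom that destroys muscle fibres. Homeostatic MuSCs (2 libraries) were sorted without a named injury, and neither their muscle group nor the age of their mice was given. Total muscle (2 libraries) held live sorted cells of enzymatically dissociated hindlimb muscles of 3-month-old wild-type mice. No label said that libraries of a group came from separate animals, so the p-values measure the spread between these libraries, which may be technical.

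The libraries held 1295 to 4429 cell barcodes and 3319283 to 114382567 UMIs, with a median per barcode from 2245 UMIs in homeostatic 1 to 24779 in the primary myoblasts. After filters 15253 of 15474 barcodes remained. The myogenic cells, taken as clusters named by Pax7, Myf5, Myod1, Cdh15, Chodl and Myog, were 4375 in primary myoblasts, 1143 and 1874 in the injured libraries, 1293 and 1063 in the homeostatic libraries and 90 and 130 in total muscle. The injured libraries stood apart in genes outside the interferon response. Over all barcodes of a library, the mitochondrial gene mt-Nd4l had 614 to 700.3 CPM (counts-per-million, the UMI count scaled by the library total) in them and none in any of the other 5 libraries. Sumo2 had 926 to 992 CPM in the injured libraries, against 2.203 to 7.89 CPM elsewhere, and 64 genes named as pseudogenes took 1.09 to 1.30% of UMIs there, against 0.130% or less. The Y-linked gene Ddx3y was at 46.8 CPM in primary myoblasts and 338 and 277 CPM in homeostatic MuSCs, but at or below 0.279 CPM in the injured and total muscle libraries, where the X-inactivation transcript Xist was at 600.5 to 962 CPM. The labels give no sex. These differences cannot be told apart from injury in the comparison of injured with homeostatic MuSCs, nor from culture in that of myoblasts with injured MuSCs, and the Y-linked difference cannot be told apart from sorting in that of homeostatic MuSCs with total muscle. The injured libraries also shared 253 barcodes, 2 of them myogenic in both, while the other 20 pairs of libraries shared 1 to 16.

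The response element can be read directly in the start regions of these genes. RefSeq windows on GRCm38.p6, from 250 bases before to 50 bases after a start site, were found for 30 of the 36 genes. The letters GAAANNGAAA, the core of the interferon-stimulated response element, were searched on both strands (TTTCNNTTTC on the other), and matches may overlap each other. They occurred in the window of 17 of these 30 genes (56.7%; the genes were listed for their response to interferon), against 3.44% of 32851 windows of the same length and 3.99% of 27025 genes. The windows of Isg15, Gbp2 and Irgm1 are shown as examples with the element and those of Xaf1 and Samhd1 as examples without it. The first 3 genes were lower after injury and the other two higher, but the element did not divide the genes in this way: Bst2 (2 matches) and Rsad2 (1 match) hold it and were higher, and Irf7, Irf8, Irf9, Isg20 and Ifi35 hold none and were lower. Each runs 5′ to 3′ along the gene's strand, and capitals mark bases of a match.
Isg15: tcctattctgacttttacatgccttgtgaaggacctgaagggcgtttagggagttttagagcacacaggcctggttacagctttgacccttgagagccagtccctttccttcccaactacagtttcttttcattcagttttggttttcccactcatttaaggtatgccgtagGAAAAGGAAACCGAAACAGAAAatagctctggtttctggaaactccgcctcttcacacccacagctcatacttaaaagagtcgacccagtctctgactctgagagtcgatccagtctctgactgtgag
Gbp2: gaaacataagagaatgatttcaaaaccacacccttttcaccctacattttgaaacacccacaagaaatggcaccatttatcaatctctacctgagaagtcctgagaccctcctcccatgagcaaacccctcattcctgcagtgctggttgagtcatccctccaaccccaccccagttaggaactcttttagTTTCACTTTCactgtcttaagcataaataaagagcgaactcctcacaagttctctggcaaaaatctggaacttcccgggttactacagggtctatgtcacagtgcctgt
Irgm1: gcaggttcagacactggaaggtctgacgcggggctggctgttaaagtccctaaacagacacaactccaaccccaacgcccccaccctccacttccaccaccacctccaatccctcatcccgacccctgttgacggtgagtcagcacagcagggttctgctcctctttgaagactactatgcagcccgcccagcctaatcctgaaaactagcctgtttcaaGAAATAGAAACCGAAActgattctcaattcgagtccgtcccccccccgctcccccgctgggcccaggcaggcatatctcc
Xaf1: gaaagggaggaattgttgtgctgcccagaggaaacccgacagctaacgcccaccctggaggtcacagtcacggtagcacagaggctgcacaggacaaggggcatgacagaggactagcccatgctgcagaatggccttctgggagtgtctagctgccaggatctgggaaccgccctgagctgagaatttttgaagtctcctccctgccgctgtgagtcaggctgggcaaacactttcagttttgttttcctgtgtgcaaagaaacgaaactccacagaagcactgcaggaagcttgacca
Samhd1: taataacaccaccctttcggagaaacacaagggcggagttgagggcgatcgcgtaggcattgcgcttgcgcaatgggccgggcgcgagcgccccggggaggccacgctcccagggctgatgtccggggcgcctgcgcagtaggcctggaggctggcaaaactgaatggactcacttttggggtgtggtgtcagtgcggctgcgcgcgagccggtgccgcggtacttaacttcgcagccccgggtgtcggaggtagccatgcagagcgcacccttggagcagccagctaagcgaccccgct

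The Isg15 window (chr4:156200769-156201068, minus strand) held 3 overlapping matches, the first starting 78 bases before the start site. The Gbp2 window (chr3:142620413-142620712, plus strand) held 1 match in the opposite orientation, and the Irgm1 window (chr11:48871371-48871670, minus strand) held 2 that overlap. The Xaf1 window (chr11:72301379-72301678, plus strand) and the Samhd1 window (chr2:157135047-157135346, minus strand) held none, which says only that these letters are not in these windows. By role, all 6 GTPases with a window held a match, as did both RNA sensors, Ifitm2 and Ifitm3 of the 3 Ifitm genes, 6 of 14 effectors and, of the 5 transcription factors, Stat2 alone. A second motif, TTCNNNGAA, the core bound by STAT dimers, reads the same on both strands and may share bases with the first. It was in the window of 12 of the 30 genes (40%), against 8.30% of all windows and 9.55% of 27025 genes.

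In uninjured total muscle the interferon-stimulated genes were highest in endothelial cells, the lining of blood vessels, and low in myogenic cells. Of the 36 genes, 35 were higher in endothelial cells than in the mean of the other types and none was lower (edgeR, adjusted p under 0.05), where 32.2% of all 7896 genes tested were called higher and 12.1% lower. Endothelial cells were the highest of 11 types for 31 of the 36, and for all 31 both endothelial libraries lay above both libraries of the next type. Of all genes tested, 13.5% were highest in endothelial cells and 9.94% also had both libraries above both of the next type. The cells had been assigned by marker genes that include no interferon-stimulated gene, at 2 or more markers of a type, which placed 3966 of 4369 cells and gave 376 and 461 endothelial cells. The median log2 fold in endothelial cells was 3.56 over the 36 genes and 0.17 over all genes tested. With levels of 0 set to 3 counts over a type, the median over the 36 was 3.35.

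Among the effectors, Isg15, a ubiquitin-like protein joined to other proteins, reached 2008 and 2079 CPM (scaled within each fit) in the endothelial cells of total muscle 1 and 2. The next type, the 38 and 46 gated mural cells (pericytes and smooth muscle), had 241 and 768 CPM of Isg15, and myogenic cells had 16.5 and 8.73. Mural clusters, given below, had higher levels of Isg15. Its log2 fold in endothelial cells was 4.94 ± 0.17 (SE; edgeR adjusted p = 2.67e-22). Both libraries gave nearly the same endothelial level, and the mural libraries differed between themselves more than the endothelial ones did. Ifit1, which binds foreign RNA at its cap, stood at 834 and 837 CPM in endothelial cells, against 144 and 101 CPM in fibro-adipogenic cells (resident connective tissue progenitors), the next type, and no counts in myogenic cells. Rsad2 (viperin), a radical enzyme that blocks viral replication, had 342 and 350 CPM in endothelial cells and 81.3 and 27.0 CPM in macrophages or monocytes. The RNA sensor Ifih1 (MDA5) had 123 and 111 CPM in endothelial cells, against 66.05 and 46.35 CPM in macrophages or monocytes, with no overlap.

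The GTPases showed the same order at their top. Iigp1, which acts on the membranes around intracellular parasites, had 2935 and 2806 CPM in endothelial cells, against 402 and 783 CPM in mural cells and 0 and 21.8 CPM in myogenic cells, with a log2 fold of 5.80 ± 0.15 (SE; edgeR adjusted p = 6.85e-26). Gbp2, a guanylate-binding protein that coats microbial compartments, had 821 and 818 CPM in endothelial cells and 129 and 258 CPM in mural cells. All 8 GTPases were called higher in endothelial cells, but T or NK cells came second for Gbp4, Gbp5, Gbp7 and Igtp, and Igtp there (179 and 238 CPM, against 339 and 315 CPM in endothelial cells) was the closest of these. Ifitm3, a membrane protein that stops viruses from fusing, was at 6380 and 6188 CPM in endothelial cells, 3284 and 3202 CPM in fibro-adipogenic cells and 783 and 821 CPM in myogenic cells. Ifitm2 had the smallest lead of the 31 genes, 1.27 times the level of macrophages or monocytes, and the median lead was 2.71 times. The lead of Ifi44, 7.89 times, was set against a mural level of 2 counts in total muscle 1 and 0 in total muscle 2.

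All 5 transcription factors were called higher in endothelial cells. Irf1, which is induced by interferon gamma, had 864 and 868 CPM there and 257 and 366 CPM in mural cells (log2 fold in endothelial cells 3.39 ± 0.14, SE; edgeR adjusted p = 1.06e-20). Irf7, the factor that amplifies type I interferon production, had 362 and 379 CPM in endothelial cells and 105 and 103 CPM in fibro-adipogenic cells. Stat2 had 127 and 114 CPM in endothelial cells, against 48.2 and 50.3 CPM in mural cells. Both endothelial libraries lay above all libraries of the other types for these 3 factors.

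The 5 genes with another maximum each peaked in a different type. Irf8, a factor of B cell and myeloid development, had 521 and 440 CPM in B cells, against 286 and 260 CPM in endothelial cells. Ifi27l2a, a small hydrophobic protein, had 2759 and 1846 CPM in macrophages or monocytes, against 83.8 and 158 CPM in endothelial cells, where it was the 1 gene not called (log2 fold -0.39 ± 0.35, SE; edgeR adjusted p = 0.417). Ifitm1 had 233 and 510 CPM in mural cells and no more than 32.4 CPM in any other library and type. Samhd1, which hydrolyses deoxynucleotides, had 414 and 349 CPM in T or NK cells, against 230 and 178 CPM in B cells. Isg20, an RNA exonuclease, had 57.7 and 65.5 CPM in myogenic cells, against 47.7 and 44.95 CPM in endothelial cells. Its lead was only 1.33 times and rests on few counts, from 32 and 63 myogenic cells. In these 5 cases both libraries of the first type lay above both of the second.

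**Figure D1:**
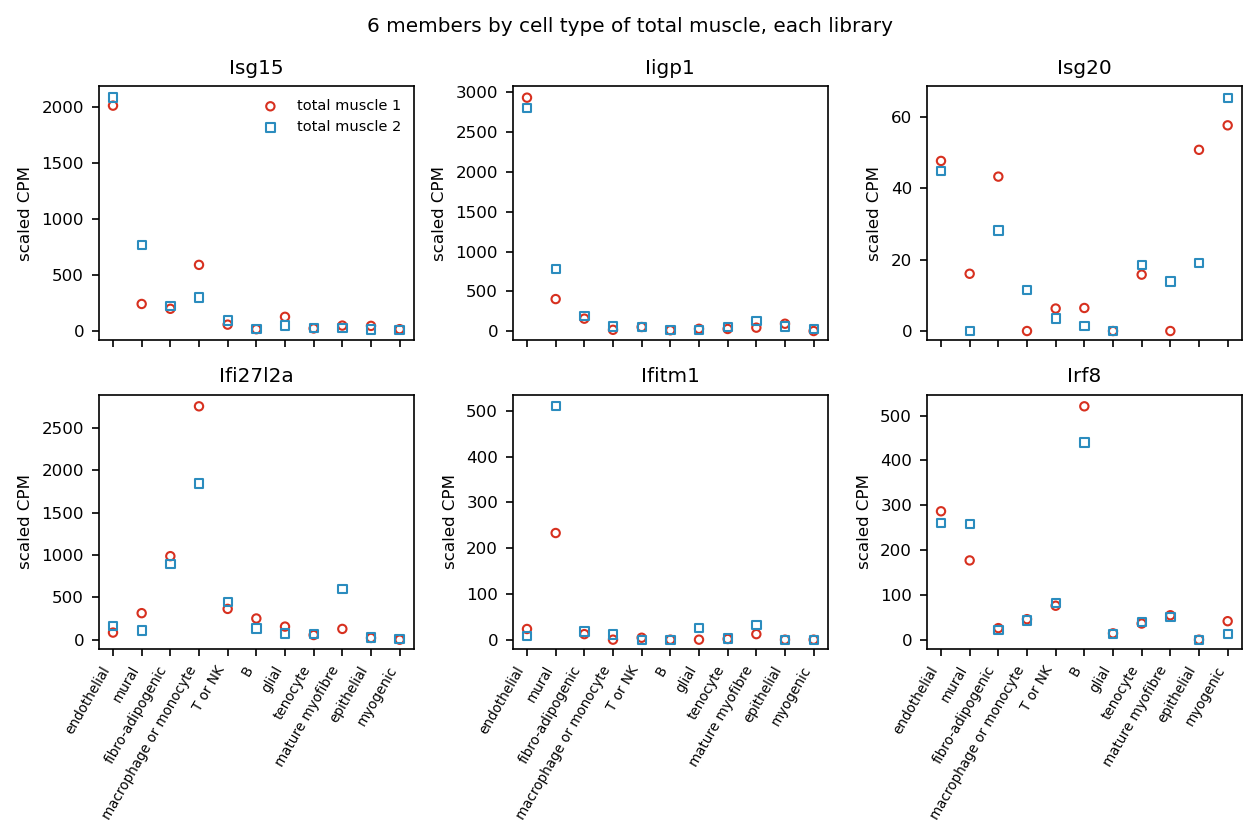
Scaled CPM of Isg15, Iigp1, Isg20, Ifi27l2a, Ifitm1 and Irf8 in the 11 cell types of total muscle, 1 point per library. Isg15 and Iigp1 are highest in endothelial cells (2008 and 2079 CPM, and 2935 and 2806 CPM), and the other panels peak in myogenic cells, macrophages or monocytes, mural cells and B cells.

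Some other types carried part of the set, while in T or NK and glial cells the counts called higher were near the background. Fibro-adipogenic cells had 29 of 36 genes higher and 1 lower (Gbp4), where 33.4% of all genes were called higher and 6.5% lower. Mural cells had 19 higher and none lower, where 15.1% of all genes were called higher and 5.85% lower. Endothelial markers summed to 860 and 582 CPM in the mural gate, and their part in its levels was not tested. Macrophages or monocytes had 12 higher (background 18.7%), among them Ifi27l2a and Bst2 (tetherin, which holds virus particles on the cell), and 2 lower (background 6.78%), Irf1 and Igtp. T or NK cells had 10 higher (background 23.5%), including 5 of the 8 GTPases, and 3 lower (background 14.2%), Ifih1, Ifitm2 and Ifitm3. B cells had 3 higher (Irf8, Trim25 and Samhd1; background 27.3%) and 10 lower (background 16.2%), with Ifitm3 at 107 and 94.2 CPM. Tenocytes had 6 higher (background 26.0%) and 6 lower (6.74%), glial cells 3 higher (7.38%) and 1 lower (5.09%), mature myofibres 2 higher (19.7%) and 6 lower (7.55%), and epithelial cells 1 higher (13.0%) and 15 lower (7.16%). In myogenic cells 17 of 36 were lower, where 9.95% of all genes were called lower, and Isg20 alone was higher (background 13.1%). The myogenic gate held 32 and 63 cells and each gene there rests on few counts (2 and 2 for Isg15); 8 of the 36 genes had no count in it. Ifitm2 and Ifitm3 did not pass the test in myogenic cells (log2 fold -0.14 ± 0.15 and -0.12 ± 0.19, SE; edgeR adjusted p = 0.664 and 0.820). Summed over the 36 genes, endothelial cells had 22548 and 22163 CPM and myogenic cells 1542 and 1541 CPM.

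**Figure D2:**
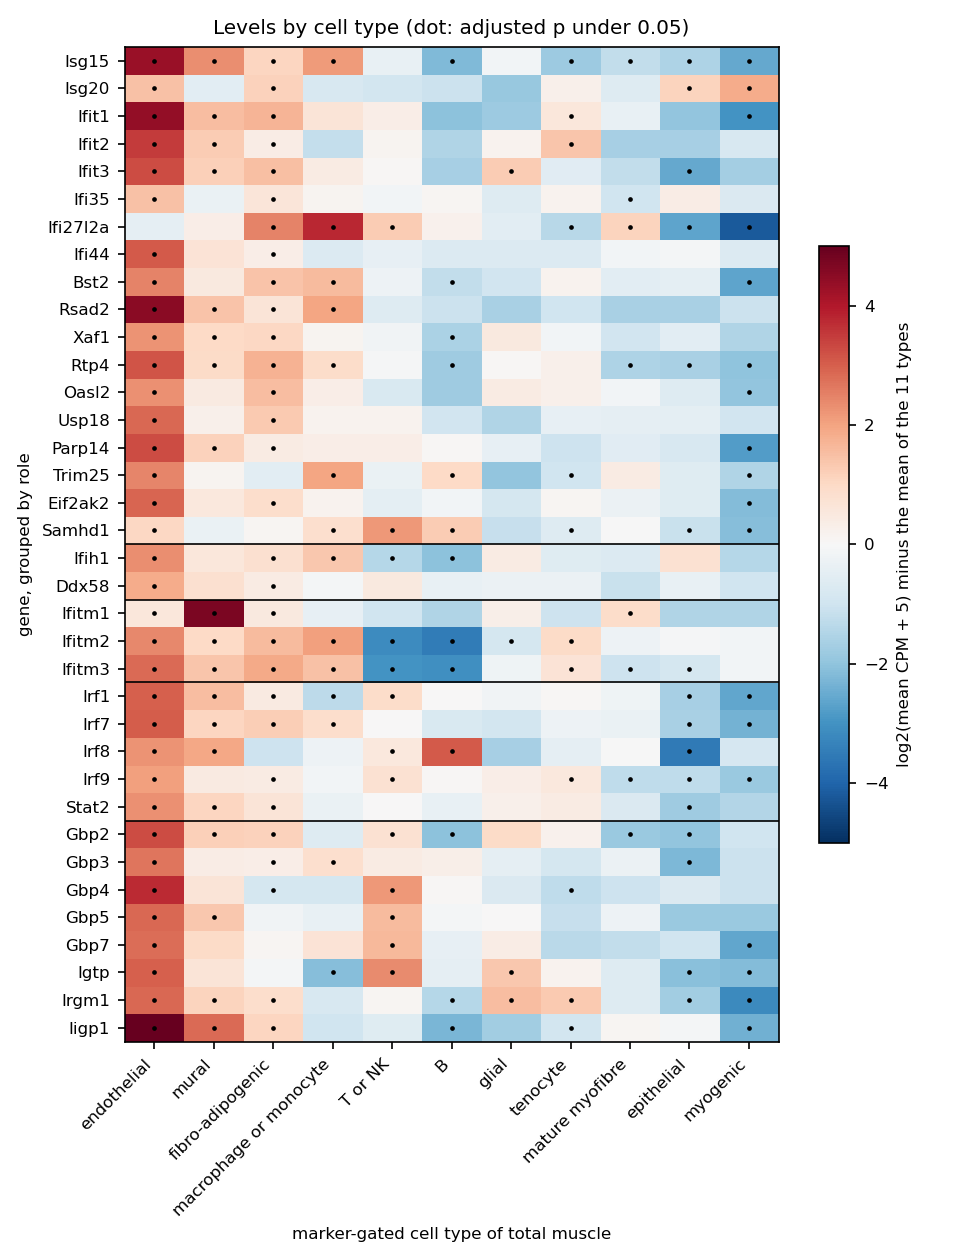
Mean scaled CPM of the 36 genes (rows, by role) in 11 marker-gated cell types of total muscle (columns, endothelial cells at the left), with dots where a gene was called different from the mean of the other types at an edgeR adjusted p under 0.05. The endothelial column is the highest for 31 of the 36 genes, and 35 are called higher there.

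The endothelial level was shared by most cells of the type. After each cell was thinned to 1000 UMIs, 61.2% (95% exact binomial interval 56.0 to 66.1%) and 64.0% (59.4 to 68.4%) of endothelial cells had a UMI of Isg15, against 2.198% and 1.29% of B cells, whose depth was similar (median 2109 and 2330 UMIs per endothelial cell, 2164 and 2166 per B cell). The unthinned shares of Isg15 were 75.8 and 76.4% in endothelial cells, and 3.66 and 4.21% in B cells. Intervals here and below cover counting error alone. For Iigp1 the thinned shares were 68.1 and 66.6% in endothelial cells and 0.366 and 0.647% in B cells. In total muscle the myogenic clusters had Isg15 in 1.11 and 2.31% of thinned cells, near the shares of the B cells. Whether these myogenic shares are expression or background was not tested. Each 1000 UMIs of an endothelial cell held on average 20.3 and 20.6 UMIs of the 36 genes, and no endothelial cell had none. Without Ifitm2 and Ifitm3 the means were 12.5 and 12.6 UMIs, and 2.39 and 1.74% of endothelial cells had none. No UMI of the type I effectors was seen in 9.04 and 8.46% of endothelial cells, and none of the GTPases in 17.3 and 16.5%.

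Among endothelial cells, clusters differed in level, given here without a test and as CPM not scaled by a fit. The cluster led by Cldn5 and Sox17 (206 and 225 cells) had 2748 and 2786 CPM of Isg15, 1140.3 and 1056 CPM of Ifit1 and 1112 and 993 CPM of Gbp2, and Iigp1 is among its leading genes. The cluster led by Timp4, Gpihbp1 and Aqp7 (125 and 173 cells) had 1161 and 1211 CPM of Isg15, 572 and 553 CPM of Ifit1 and 156 and 188 CPM of Gbp2. The cluster led by Selp, Csf3 and Ackr1 (34 and 52 cells) had 1362 and 1293 CPM of Isg15, 724 and 813 CPM of Ifit1 and 1251 and 1204 CPM of Gbp2. Irf1 ran differently, at 1089 and 1175 CPM in the Gpihbp1 cluster, 891 and 873 CPM in the Sox17 cluster and 214 and 211 CPM in the Selp cluster. Mural clusters held 72 and 95 cells, more than the mural gate. Isg15 was at 799 and 1186 CPM in the mural cluster led by Rgs5 and Kcnj8. In the mural cluster led by Cytl1 and Acta2 it was at 947 and 924 CPM. The value of 1186 CPM lay above the 1161 CPM of the Gpihbp1 cluster, so the distance between endothelial and mural cells depends on how cells are assigned.

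Wider lists of the pathway were read in endothelial cells against the same background of 32.2% higher and 12.1% lower. Of 40 further interferon-stimulated genes, 32 were tested and 31 were higher in endothelial cells, none lower. Of 17 receptor and signalling genes, 15 were tested, 10 were higher and 1 lower (Ifngr2, a chain of the interferon gamma receptor). Socs3, a feedback inhibitor of JAK kinases, had 1233 and 1253 CPM in endothelial cells (log2 fold 2.23; edgeR adjusted p = 1.83e-14), and Tmem173 (STING), the adaptor of DNA sensing, had 279 and 245 CPM there (log2 fold 4.23; edgeR adjusted p = 6.11e-21). The interferons themselves were almost unseen: over all 7 libraries 9 interferon genes had 41 UMIs, and 3 of them had none. Ifng had 4 and 7 UMIs in total muscle 1 and 2, of which 3 and 6 were in T or NK cells. Ifnb1, a type I interferon, had 10 and 1 UMIs in total muscle 1 and 2. Among the gated types it was counted only in macrophages or monocytes (50.8 and 3.86 CPM).

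Sorted homeostatic MuSCs were then set against the myogenic cells found in total muscle, the same cell type without the sort for stem cells. Of the 27 genes tested, 3 were higher and 2 lower in the sorted cells (edgeR, adjusted p under 0.05), where 4.64% of all 7924 genes tested were called higher and 3.91% lower. The median log2 fold was 0.57 over the 27 genes and 0.03 over all genes. Ifitm3 had 1464 and 1775 CPM in sorted homeostatic MuSCs, against 990 and 1065 CPM in total muscle (log2 fold 0.65 ± 0.12, SE; edgeR adjusted p = 0.00114). Ifitm2 had 537 and 513 CPM in sorted cells and 366 and 378 CPM in total muscle (log2 fold 0.50; edgeR adjusted p = 0.0314). Its call was lost under DESeq2, the marker gate or thinning, and without homeostatic 1, total muscle 1 or total muscle 2. It was also lost with GC-rich barcodes alone, and with cells gated as another type or doublets at the expected rate left out. Gbp2 had 149.5 and 252 CPM in sorted cells and 48.2 and 51.1 CPM in total muscle (log2 fold 2.01 ± 0.29, SE; edgeR adjusted p = 0.000107). For these 3 genes the groups did not overlap.

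Both genes called lower rested on total muscle 2. Iigp1 had 6.28 and 7.38 CPM in sorted cells, against 6.43 and 131 CPM in total muscle, so the groups overlapped. Of its 59 counts in total muscle 2, 35 were in 1 cell that the marker gate called endothelial, with 34 endothelial marker UMIs, and 16 in 1 cell gated as mature myofibre. Ifi27l2a had no count in either sorted library and 9.64 and 147 CPM in total muscle, at least 191-fold lower in sorted cells against 3 counts over the group. Of its 66 counts in total muscle 2, 32 and 26 were in 2 cells. Iigp1 was no longer called under DESeq2, without homeostatic 1 or with cells of other gates left out. Without total muscle 2 Iigp1 was not called and Ifi27l2a was not tested. Endothelial markers summed to 7.25 and 9.29 CPM in the sorted cells, against 39.99 and 131 CPM in the total muscle myogenic cells, and 5938 and 6115 CPM in endothelial cells. Of 14 marker lists of other types 8 were lower in the sorted cells without overlap and 1, the mural list, higher. Mature myofibre markers summed to 15.7 and 74.3 CPM in sorted cells, against 261 and 260.5 CPM in total muscle myogenic cells, tenocyte markers to 12.7 and 13.4 CPM in sorted cells, against 98.4 and 81.8 CPM in total muscle myogenic cells, and fibro-adipogenic markers to 231 and 244 CPM in sorted cells, against 403 and 407 CPM in total muscle myogenic cells. The part of these lists in the sort results was not tested. The same endothelial-gated cell held 9 of the 16 Isg15 counts of total muscle 2. Isg15 (26.0 and 45.3 CPM in sorted cells, 9.64 and 35.6 CPM in total muscle) and Irf8 (47.0 and 33.9 CPM in sorted cells, 28.9 and 33.4 CPM in total muscle) did not pass the test.

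In MuSCs 60 h after injury most interferon-stimulated genes were lower than in homeostatic MuSCs, and a small set of effectors was higher. Of 29 genes tested, 22 were lower, 5 higher and 2 not called (edgeR, adjusted p under 0.05). The comparison moved much of the transcriptome: 36.9% of all 10652 genes tested were called lower and 38.2% higher. The median log2 fold was -3.34 over the 29 genes and 0.03 over all genes. Both injured libraries lay below both homeostatic ones for 23 of the 29 genes and above them for 5, where this held for 42.8% and 44.3% of all genes tested. The 36 genes together had 994 and 914 CPM in injured MuSCs, against 2378 and 2792 CPM in homeostatic MuSCs. Without Ifitm2 and Ifitm3, which gave most of these UMIs, the sums were 254 and 280 CPM in injured and 540.4 and 671 CPM in homeostatic MuSCs.

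All 7 GTPases tested were lower after injury, with a median log2 fold of -5.21, also with genes at 0 set to their bounds. Gbp2 had no count in either injured library, against 137 and 234 CPM (500 and 752 counts) in the homeostatic libraries, which is at least 838-fold lower against 3 counts over the group. Over all cells of the injured libraries Gbp2 had 2 and 2 counts, against 536 and 821 counts over all cells of the homeostatic libraries. Of 1742 genes with 500 or more counts in homeostatic MuSCs, 5 had none in injured MuSCs, and the part of a counting difference between the libraries in such zeros was not tested. Gbp5 likewise had no count in injured MuSCs and 10.4 and 6.53 CPM in homeostatic MuSCs, at least 39.5-fold lower. Irgm1, an immunity-related GTPase that acts in autophagy, had 5.86 and 4.56 CPM in injured and 22.5 and 31.7 CPM in homeostatic MuSCs (log2 fold -2.35 ± 0.26, SE; edgeR adjusted p = 5.39e-07). The log2 fold was -4.88 for Gbp3 and -4.14 for Gbp7, further members of the Gbp family. Igtp had 3 counts in the injured group and was 40.8-fold lower (95% counting interval 13.3 to 203), and Iigp1 had 1 count and was 86.3-fold lower (14.7 to 3488). Gbp4, too low to be tested, ran the other way, with 20 and 13 counts in injured and 0 and 2 counts in homeostatic MuSCs, a ratio of 8.22 (2.10 to 70.7). The transcript end of Gbp4 is nearly identical to Gbp6, Gbp8, Gbp9 and Gbp10, so its counts are uncertain.

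Of the transcription factors, 4 of 5 were lower after injury. Irf8 had 0.509 and 0.676 CPM in injured MuSCs and 43.1 and 31.4 CPM in homeostatic MuSCs (log2 fold -5.95 ± 0.35, SE; edgeR adjusted p = 3.59e-10). Irf7 had 0.255 and 0.507 CPM in injured, against 10.98 and 9.95 CPM in homeostatic MuSCs (log2 fold -4.76 ± 0.47, SE; edgeR adjusted p = 1.72e-07). Irf9, the DNA-binding partner of Stat2, had 1.91 and 1.01 CPM in injured and 18.7 and 15.2 CPM in homeostatic MuSCs (log2 fold -3.47). The groups were well apart for these 3 factors, and Stat2, with 3 counts in the injured group, was 40.8-fold lower (95% counting interval 13.3 to 203). Irf1 had 10.6 and 13.0 CPM in injured and 23.1 and 12.4 CPM in homeostatic MuSCs, so its groups overlapped (log2 fold -0.61 ± 0.27, SE; edgeR adjusted p = 0.0507).

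Ifitm3 and Ifitm2, the members with most counts, were lower after injury. Ifitm3 had 491 and 436 CPM in injured MuSCs, against 1344 and 1646 CPM in homeostatic MuSCs (log2 fold -1.69 ± 0.15, SE; edgeR adjusted p = 3.95e-08). Ifitm2 had 249.4 and 199 CPM in injured and 493 and 476 CPM in homeostatic MuSCs (log2 fold -1.11 ± 0.15, SE; edgeR adjusted p = 5.45e-06). Ifitm1 had 2.04 and 1.18 CPM in injured and 2.75 and 3.11 CPM in homeostatic MuSCs and was not called (log2 fold -0.81; edgeR adjusted p = 0.128). Both RNA sensors were lower: Ifih1 had 0.382 and 1.69 CPM in injured and 12.6 and 10.3 CPM in homeostatic MuSCs, and Ddx58 (RIG-I) 2.55 and 3.04 CPM in injured and 6.87 and 4.66 CPM in homeostatic MuSCs. The log2 folds were -3.55 (edgeR adjusted p = 3.44e-06) for Ifih1 and -1.06 (edgeR adjusted p = 0.0181) for Ddx58. The call of Ddx58 was lost under DESeq2, with GC-rich barcodes alone, and without homeostatic 1, injured 1 or injured 2.

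Of 12 effectors tested, 7 were lower and 5 higher after injury, where 36.9% of all genes were called lower and 38.2% higher, so the count of higher effectors is near the background. Isg20 had 1.78 and 2.70 CPM in injured MuSCs, against 52.2 and 66.2 CPM in homeostatic MuSCs (log2 fold -4.74 ± 0.27, SE; edgeR adjusted p = 2.66e-10). Isg15 had 3.31 and 2.03 CPM in injured and 23.9 and 42.0 CPM in homeostatic MuSCs (log2 fold -3.56 ± 0.32, SE; edgeR adjusted p = 6.05e-08). The share of homeostatic cells with a UMI of Isg15 lay near that of B cells in total muscle, which do not measure background in the sorted libraries. Ifi35 had 7.51 and 7.10 CPM in injured and 48.1 and 64.0 CPM in homeostatic MuSCs (log2 fold -2.93). Ifit1, Rtp4, Parp14 and Eif2ak2, the kinase PKR that halts translation on double-stranded RNA, were also lower, with log2 folds from -3.48 (Ifit1) to -0.98 (Eif2ak2), the last not called under DESeq2 or without homeostatic 1 or injured 1. Ifit3 was not tested, with no count in injured MuSCs and 3.02 and 1.55 CPM in homeostatic MuSCs, at least 10.7-fold lower. The other untested effectors, Ifit2, Ifi27l2a, Ifi44, Oasl2 and Usp18, had at most 8 counts in a library.

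The 5 effectors that rose had groups that did not overlap. Samhd1 had 61.0 and 55.1 CPM in injured MuSCs, against 10.7 and 5.28 CPM in homeostatic MuSCs (log2 fold 2.84 ± 0.25, SE; edgeR adjusted p = 5.38e-08). Trim25, a ubiquitin ligase that acts on RIG-I, had 47.1 and 64.6 CPM in injured and 8.51 and 8.08 CPM in homeostatic MuSCs (log2 fold 2.74 ± 0.24, SE; edgeR adjusted p = 4.07e-08). Xaf1, which antagonises an inhibitor of apoptosis, had 59.6 and 67.4 CPM in injured and 7.41 and 14.9 CPM in homeostatic MuSCs (log2 fold 2.52 ± 0.25, SE; edgeR adjusted p = 1.66e-07). A stretch of 90 bases near the Xaf1 transcript end is 95.6% or more identical to transcripts of other genes, and the part of this stretch in the Xaf1 result was not tested. Rsad2 had 9.17 and 9.63 CPM in injured and 0.549 and 2.18 CPM in homeostatic MuSCs (log2 fold 2.81 ± 0.45, SE; edgeR adjusted p = 3.52e-05). Bst2 had 30.04 and 31.3 CPM in injured and 19.2 and 22.1 CPM in homeostatic MuSCs (log2 fold 0.57 ± 0.20, SE; edgeR adjusted p = 0.0164). Its call was lost under DESeq2, with no scaling, with thinning, with GC-rich barcodes alone, and without homeostatic 1, injured 1 or injured 2. The 6 markers of fibro-adipogenic cells were lower after injury. They summed to 1.95 and 1.83 CPM in injured and 231 and 244 CPM in homeostatic myogenic cells. Fibro-adipogenic cells of total muscle had 30494 and 31885 CPM of these markers. Dpt was at 0 in injured 1, Clec3b and Smoc2 in injured 2 and Pdgfra in homeostatic 2. The 6 mural markers, with Higd1b at 0 throughout and Myh11 at 0 in injured cells, summed to 24.9 and 29.2 CPM in injured and 187 and 168 CPM in homeostatic myogenic cells, and the part of either list in these results was not tested. Of 14 lists of other types 8 were lower in injured cells without overlap and 4 higher, the epithelial, mature myofibre, neutrophil and tenocyte lists. Endothelial markers were low in both, at 5.84 and 7.03 CPM in injured and 7.25 and 9.29 CPM in homeostatic cells.

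**Figure D3:**
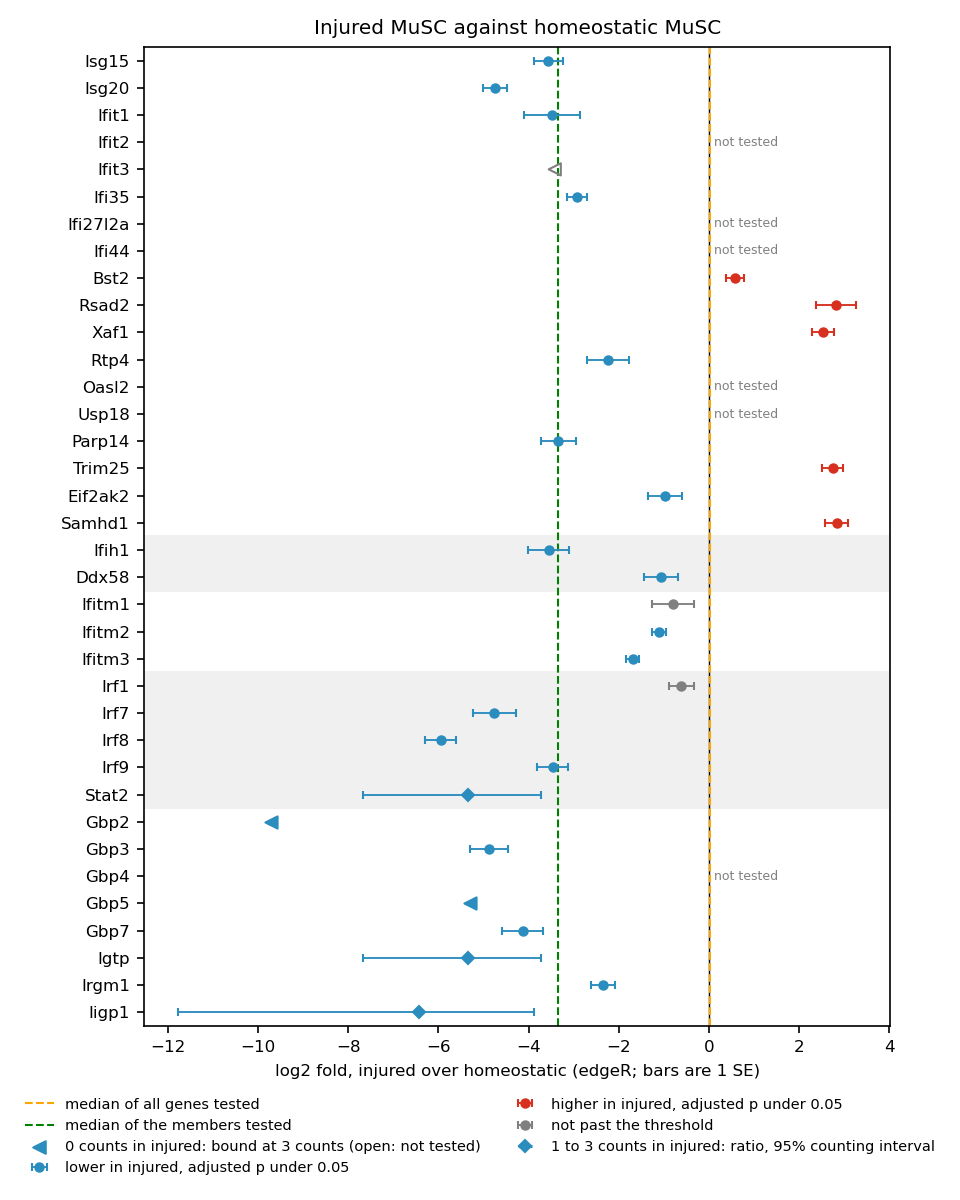
Log2 fold of each gene in injured over homeostatic MuSCs, by role, with 1 SE. Triangles are bounds for genes with no count in injured MuSCs and diamonds ratios with 95% counting intervals for genes with 1 to 3 counts. The median of the genes tested lies at -3.34 and that of all genes at 0.03, and Samhd1, Rsad2, Trim25, Xaf1 and Bst2 lie to the right of 0.

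Other lists of the pathway were read against the same background of 36.9% lower and 38.2% higher. Of 17 receptor and signalling genes 14 were tested, 11 were lower after injury and none higher. Stat3, a signal transducer shared with other cytokines, had 6.37 and 10.3 CPM in injured MuSCs, against 494 and 424 CPM in homeostatic MuSCs (log2 fold -5.81 ± 0.22, SE; edgeR adjusted p = 2.83e-12), and Jak1, the kinase of both interferon receptors, had 30.2 and 30.8 CPM in injured and 273 and 259 CPM in homeostatic MuSCs (log2 fold -3.12). Ifnar1, Ifngr2 and Il10rb, which are receptor chains, were not called. Of 15 sensing genes 10 were tested, 8 were lower, Tmem173 was higher and Mavs was not called. Of 40 further interferon-stimulated genes 15 were tested, 10 were lower and 2 higher. Ly6e had 143 and 121 CPM in injured and 14.3 and 15.2 CPM in homeostatic MuSCs (log2 fold 3.16 ± 0.19, SE; edgeR adjusted p = 4.36e-10), while Ifi27 had 22.9 and 26.7 CPM in injured and 213 and 279 CPM in homeostatic MuSCs (log2 fold -3.31).

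Shares of cells with a UMI were compared at equal depth. After thinning to 1000 UMIs, a UMI of Gbp2 was seen in 0 of 1143 and 0 of 1862 injured cells, with upper 95% limits of 0.322% and 0.198% on cells with a UMI, not on cells expressing the gene, against 10.9% (9.15 to 12.8%) and 15.7% (13.5 to 18.1%) of homeostatic cells. B cells of total muscle had Gbp2 in 1.83 and 1.62% of thinned cells. Unthinned, Gbp2 was in 0 and 0% of injured and 19.6 and 30.95% of homeostatic cells, and 3.66 and 3.24% of B cells. Median depth was 7477 and 3282 UMIs per injured, 2491 and 2756 per homeostatic and 2164 and 2166 per B cell. Ifitm3 was found in 36.1 and 31.04% of thinned injured cells, 65.6 and 72.6% of thinned homeostatic cells and 10.3 and 10.4% of B cells, with unthinned shares of 90.8 and 67.0% in injured and 83.3 and 89.0% in homeostatic cells. Xaf1 was in 4.81 and 5.53% of thinned injured cells, 1.01 and 1.74% of thinned homeostatic cells and 0.733 and 0.324% of B cells. Samhd1 was in 3.85 and 5.16% of thinned injured and 0.758 and 0.615% of thinned homeostatic cells, and B cells, which express it, give no background for it. Isg15 was in 0.350 and 0.322% of thinned injured cells and 2.36 and 2.87% of thinned homeostatic cells, against 2.198 and 1.29% of B cells in total muscle. These B cells come from other libraries and do not measure background in the sorted ones. Whether the homeostatic shares of Isg15 are expression or background was not tested, so no expression is read from them. Over the 36 genes a cell held on average 0.906 and 0.849 UMIs per 1000 in the injured libraries and 2.70 and 3.09 in the homeostatic libraries.

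**Figure D4:**
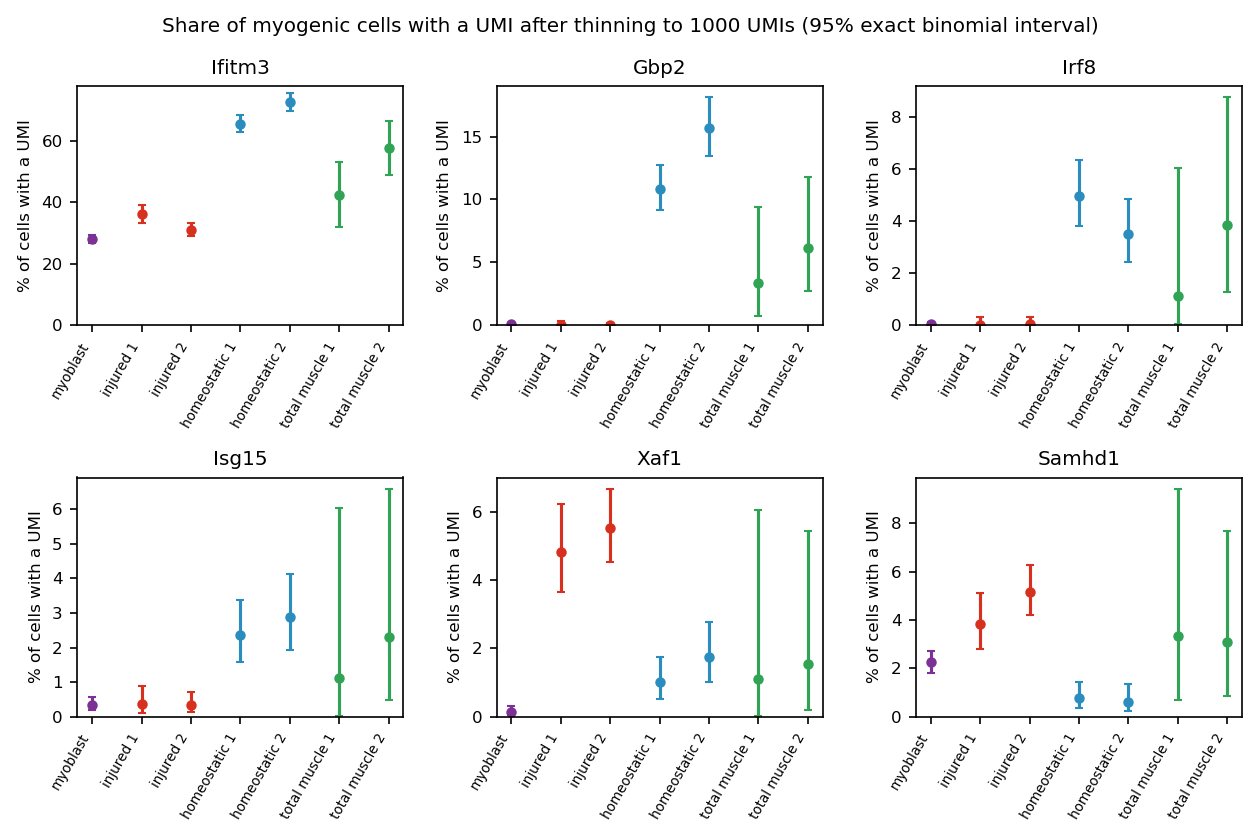
Percent of myogenic cells with at least 1 UMI of Ifitm3, Gbp2, Irf8, Isg15, Xaf1 and Samhd1 after thinning to 1000 UMIs per cell, by library, with 95% exact binomial intervals. Gbp2 is at 0% in both injured libraries and at 10.9 and 15.7% in the homeostatic ones, while Xaf1 and Samhd1 are higher in the injured ones.

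Primary myoblasts, dividing myogenic cells in culture, were set against both sorted groups. There is 1 myoblast library, assumed in the fit to vary like the sorted groups, and the comparisons share libraries, so their values are given side by side. Levels in this fit of 5 libraries were scaled together and differ a little from those above. The sums of marker lists given below are not scaled in this way. Against homeostatic MuSCs, 26 of 32 genes tested were lower in myoblasts and 2 higher (edgeR, adjusted p under 0.05), where 32.2% of all 12378 genes were called lower and 39.0% higher. With no scaling, 65.7% of the called genes were higher, against 54.8% with it. Of 14 marker lists of other types 7 were lower in myoblasts than in homeostatic MuSCs without overlap and 5 higher: fibro-adipogenic markers summed to 0.681 CPM in myoblasts, against 231 and 244 CPM in homeostatic MuSCs, mural markers to 1028 CPM in myoblasts, against 187 and 168 CPM in homeostatic MuSCs, and mature myofibre markers to 2755 CPM in myoblasts, against 15.7 and 74.3 CPM in homeostatic MuSCs. Against injured MuSCs 6 lists were lower in myoblasts and 7 higher, and the part of these lists in the results was not tested. The median log2 fold was -3.22 over the 32 genes and 0.18 over all genes. Against injured MuSCs, 14 of the 32 were lower and 8 higher, where 26.2% of all genes were called lower and 33.9% higher, with a median of -0.55 over the 32 genes and 0.18 over all genes. With no scaling the share of called genes that were higher was 81.1%, against 56.5% with it, and the all-gene median 0.90. The median of the 32 genes was then 0.17 and 9 were called lower, and without injured 1 only 3 were called higher. Summed over the 36 genes the myoblasts had 685 CPM, the injured MuSCs 1086 and 988 CPM and the homeostatic MuSCs 2544 and 2995 CPM.

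Gbp2 had 0.416 CPM (64 counts) in myoblasts, no count in injured MuSCs and 147 and 251 CPM in homeostatic MuSCs (log2 fold of myoblasts over homeostatic -8.89 ± 0.37, SE; edgeR adjusted p = 4.80e-15). Irf8 had 0.195 CPM in myoblasts, 0.556 and 0.731 CPM in injured and 46.1 and 33.7 CPM in homeostatic MuSCs. Isg15 had 2.60 CPM in myoblasts, 3.61 and 2.19 CPM in injured and 25.6 and 45.01 CPM in homeostatic MuSCs, with no call between myoblasts and injured MuSCs (log2 fold -0.19 ± 0.37, SE; edgeR adjusted p = 0.668). Gbp5, with 2 counts in myoblasts, was 709-fold lower than in homeostatic MuSCs (95% counting interval 188 to 5994). For Gbp2, Irf8 and Isg15 the homeostatic libraries lay above both other groups. Ifitm3 had 256 CPM in myoblasts, 536 and 471 CPM in injured and 1438 and 1765 CPM in homeostatic MuSCs, and Ifitm2 had 337 CPM in myoblasts, 272 and 215 CPM in injured and 528 and 510.1 CPM in homeostatic MuSCs. Ifitm3 was lower and Ifitm2 higher in myoblasts than in injured MuSCs (log2 fold -0.98 and 0.47; edgeR adjusted p = 0.000104 and 0.0304). The call was lost with no scaling for Ifitm3. For Ifitm2 it was lost under DESeq2, RLE scaling, without shared barcodes or without injured 2.

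The effectors that were higher in injured than in homeostatic MuSCs are given here with their myoblast levels. Xaf1 had 0.981 CPM in myoblasts and 65.0 and 72.9 CPM in injured MuSCs (log2 fold of myoblasts over injured -6.13 ± 0.31, SE; edgeR adjusted p = 8.33e-14). Trim25 had 8.82 CPM in myoblasts, 51.4 and 69.8 CPM in injured and 9.11 and 8.67 CPM in homeostatic MuSCs. Samhd1 had 14.3 CPM in myoblasts, 66.6 and 59.6 CPM in injured and 11.5 and 5.67 CPM in homeostatic MuSCs. Rsad2 had 1.21 CPM in myoblasts, 10.0 and 10.4 CPM in injured and 0.588 and 2.33 CPM in homeostatic MuSCs, and Bst2 had 10.3 CPM in myoblasts, 32.8 and 33.8 CPM in injured and 20.6 and 23.7 CPM in homeostatic MuSCs. The injured libraries stood above both other groups for these genes, and mt-Nd4l, Sumo2 and the pseudogenes were also higher in them alone; the part of that difference in these results was not tested. Against homeostatic MuSCs, Eif2ak2 (11.7 CPM in myoblasts, 7.05 and 6.00 CPM in homeostatic MuSCs; log2 fold 0.83 ± 0.31, SE; edgeR adjusted p = 0.0205) and Samhd1 (log2 fold 0.72; edgeR adjusted p = 0.0269) were higher in myoblasts. Neither call held under DESeq2, RLE scaling, over all cells or without homeostatic 2. Eif2ak2 also lost its call under the marker gate and thinning, and Samhd1 with GC-rich barcodes alone. Of the receptor and signalling genes, 10 of 15 tested were lower and Tyk2 was higher in myoblasts than in homeostatic MuSCs, and Stat3 had 8.57 CPM in myoblasts and 529 and 455 CPM in homeostatic MuSCs.

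**Figure D5:**
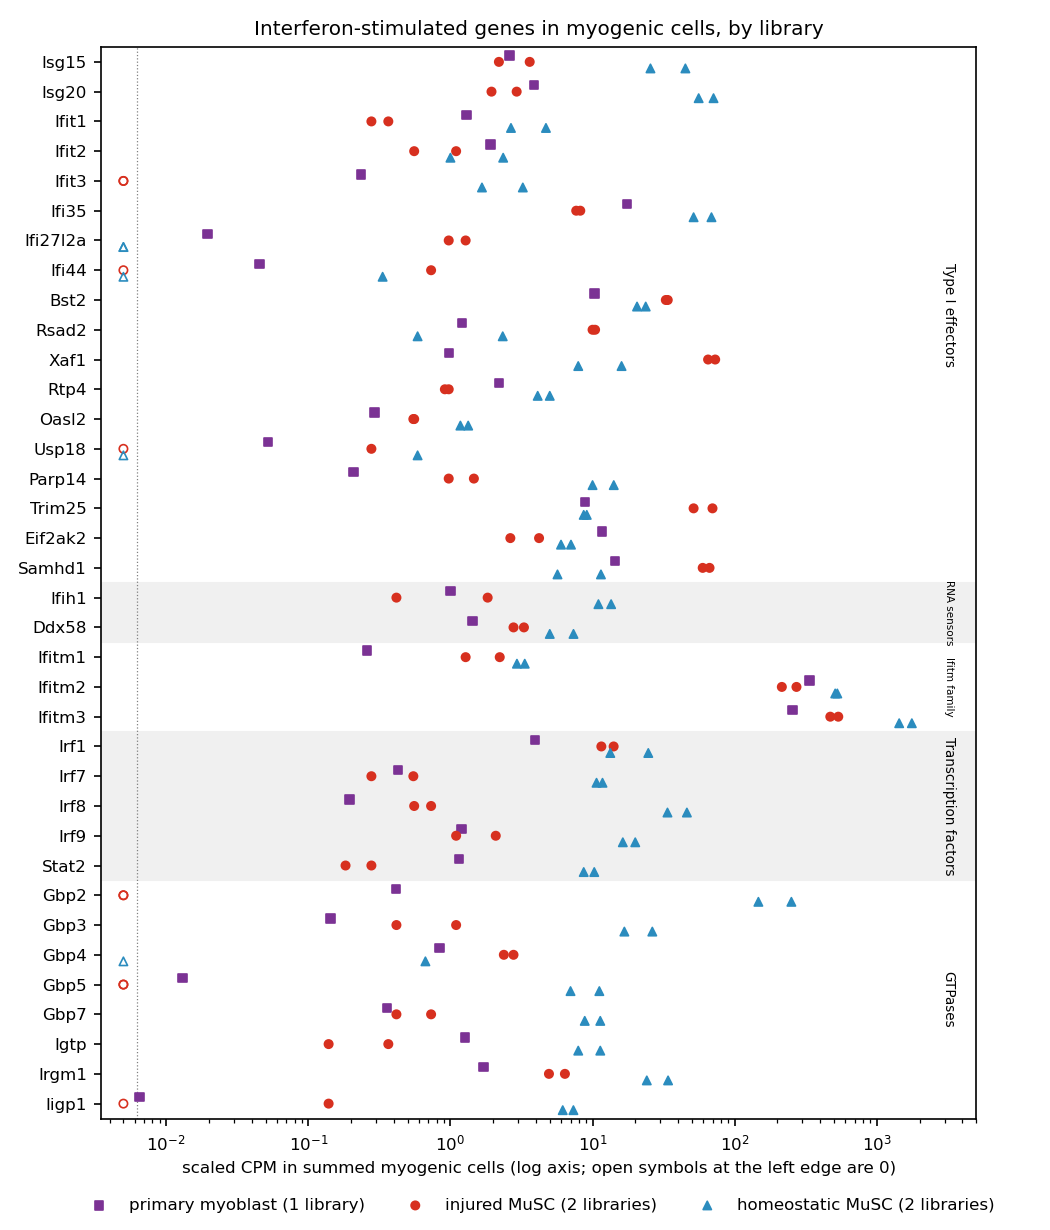
Scaled CPM (log axis) of the 36 genes in myogenic cells of primary myoblasts (1 library), injured MuSCs and homeostatic MuSCs (2 libraries each), by role, with open symbols for levels of 0. Most transcription factors and GTPases are highest in homeostatic MuSCs, while Xaf1, Trim25, Samhd1, Rsad2 and Bst2 are highest in injured MuSCs.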

How the data were processed

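The deposited matrices are raw counts of UMIs for 27998 genes in each barcode, as the file headers and whole numbers show. Seurat 2.3.4, Cell Ranger 2.2.0, bcl2fastq 2.17.1 and the build mm10 are named, without a role, in the submitters' notes on processing. The annotation, strand setting and read length are not given in the sources used here. Columns of other series numbered 0.

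Barcodes with at least 200 genes, at most 10% mitochondrial and at most 2% haemoglobin UMIs were kept. Scrublet in scanpy 1.11.5 marked 59 of 15253 cells (0.387%) as doublets, too few to have worked. Those cells were left out, and leaving out 322 cells at 0.8% per 1000 cells was an alternative chosen after seeing the data. Cells were clustered per group with Leiden (2000 variable genes, none of the 36 genes among them, 30 components, 20 neighbours, resolution 1), and a cluster was called myogenic at 3 or more raised markers, where a marker is raised at 2 times its total muscle level and 20 CPM. Low-depth clusters led by no such marker stayed unnamed. In total muscle a cell was assigned to a type at 2 or more markers of that type and fewer of any other, and types with 20 or more cells in each library were fitted.

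Counts were summed per library, or per library and type, and tested with edgeR 4.0.16 (TMM scaling, filterByExpr, quasi-likelihood test, Benjamini-Hochberg adjustment over all genes tested, threshold 0.05), with the library as a block for the types. CPM are scaled by TMM within each fit. Levels over all barcodes of a library, levels of clusters and sums of marker lists in the myogenic clusters are CPM without this scaling. The biological coefficient of variation was 11.6% for injury and 12.3% for the types. Near-identical transcript ends were searched against GENCODE transcripts. Overlapping annotations touch the ends of Ifi35, Ifitm2, Irf7, Irf8, Gbp4, Igtp and Usp18. The steps were tested on simulated data.

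All 36 genes could be named. Values per library were given for the members with the highest mean CPM, up to 4 a role, and for those called against their role, and other pathway genes came from fixed lists. Values of further members, among them Isg15, Isg20, Stat2, Gbp4, Gbp5, Igtp and Iigp1 after injury, were chosen after they were seen. The 36 genes and all lists were chosen with earlier results of these data known. Replicate numbers match across groups, but no source pairs them.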

Additional observations from a re-analysis of the deposited data

How the results depend on the processing

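Of 1970 alternative values, 1752 kept their direction and their side of the threshold, 93 lost and 23 gained a call, 88 moved and 14 reversed. After injury the count of genes called higher moved by over 1.5 times only under thinning to 1000 UMIs per cell (3). There Bst2 lost its call and Rsad2 was not tested. Bst2, Ddx58 and Eif2ak2 lost their calls under DESeq2, and the all-gene median was -0.27 with no scaling and 0.11 with no filter. Of all genes tested after injury, 75.2% were called in the main fit, 71.4% with thinning and 63.8% under DESeq2.

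For sorted homeostatic cells against total muscle myogenic cells the 2 genes called lower became 1 under DESeq2 and with cells of other gates left out (chosen after seeing the data). With GC-rich barcodes, the marker gate or thinning the count was 0, because neither gene was tested there. Leaving out 1 library gave 0 to 2, and without total muscle 2 Ifi27l2a was not tested. Over all cells of the libraries 31 genes were lower and 1 higher, with a median log2 fold of the members tested in homeostatic MuSC against total muscle myogenic cells of -2.19 (Ifitm2 -0.75, Ifitm3 -0.31), a comparison that mixes cell types by construction. There 63.9% of all genes tested were called, 45.3% of these higher, against 8.56% called in the main fit. The share called was 4.58% under DESeq2 and 7.91% with cells of other gates left out. It was 5.08% with GC-rich barcodes, 3.75% under the marker gate and 5.81% with thinning. The log2 fold of Iigp1 in homeostatic MuSC against total muscle myogenic cells ranged from -4.24 to 0.10 when 1 library was left out, the highest without total muscle replicate 2.

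For myoblasts against homeostatic MuSCs the 2 genes called higher became 0 under DESeq2, RLE scaling and all cells, and 1 with GC-rich barcodes, the marker gate or thinning; leaving out 1 library gave 0 to 2. For myoblasts against injured MuSCs the 8 genes called higher became 3 under DESeq2 and thinning, 5 over all cells and 4 under the marker gate, with 3 to 10 when 1 library was left out (3 without injured 1, 4 without injured 2). The 14 called lower became 9 with no scaling and 8 with thinning, where Ifitm1, Gbp4 and Ddx58 were not tested. The median was 0.17 with no scaling, and Ifit1 was at -0.21 over all cells and -0.17 with thinning. Of all genes tested against injured MuSCs, 60.1% were called in the main fit, 37.6% under DESeq2 and 48.6% with thinning. The share was 58.6% over all cells, 57.2% under the marker gate and 73.1% with no scaling. Against homeostatic MuSCs it was 71.2% in the main fit, 54.6% under DESeq2, 70.8% with RLE scaling and 70.5% over all cells. The causes were not tested.

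Across the types, 121 calls higher and 61 lower became 73 and 20 with thinning, and 68 lower with at least 40 cells a type (chosen after seeing the data). Endothelial cells gained 1 gene called lower under the stricter gate and with at least 40 cells. Medians reversed in tenocytes (0.047 by clusters, 0.016 with no filter), glial cells (0.012 with RLE, 0.41 with no scaling) and for the median log2 fold of the members tested in T or NK cells of total muscle (-0.161 stricter gate, -0.32 at least 40 cells, -0.0189 without shared barcodes). Unthinned shares of Isg15 were 1.14% in injured 1, 4.95 and 6.77% in homeostatic and 75.8 and 76.4% in endothelial cells.

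With the replicate number as a block, 22 genes were lower and 5 higher after injury, as without it. Same-numbered libraries deviated with correlations of -0.04 (injured and homeostatic) and 0.11 (homeostatic and total muscle), so pairing is not established. Genes with few counts limit the depth: 7 of 36 were not tested after injury.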
